A study of Caenorhabditis elegans with 2 samples.

Results

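Of the 1440 strong DVE-1-GFP peaks on the nuclear chromosomes of Caenorhabditis elegans late embryos, 423 (29.4%, Clopper-Pearson 95% interval 27.03% to 31.8%) had their summit in the promoter window of exactly 1 protein-coding gene. The window began 1000 bp ahead of the gene's annotated 5′ end in Ensembl release 115 and ended 200 bp past it. A further 216 peaks lay in the windows of several genes at once, and 801 lay in none. The 423 peaks were assigned by this rule to 420 genes of 19973 protein-coding genes, and 3 of these genes had 2 peaks. These peaks are called single-gene promoter peaks here. Other genes can still lie close: 123 of the 423 had a non-coding gene within 200 bp of the summit. For 7 another protein-coding gene's start was nearer. A summit in a window says where the protein was found, and gives no measure of what the gene did.

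The data are chromatin immunoprecipitation followed by sequencing (ChIP-seq) from 1 group of 2 biological replicates of whole late embryos. The animals were hermaphrodites of strain OP398, which carries the unc-119 allele tm4063 on chromosome III and the integrated transgene wgIs398. The transgene makes DVE-1 with a GFP-FLAG tag at its C terminus, the chromatin was sheared by sonication and the tagged protein was precipitated with an antibody against GFP. Both replicates are of this 1 line, every cell type of the embryo is pooled in them, and untagged worms were not analysed here. There was no second condition, so there is no test over samples, and all that follows describes 1 pair of libraries. Signal below is the authors' own enrichment value for a peak, which ranks peaks within a list and is not comparable between lists. The lists hold no totals of reads, so depth is unknown, and all intervals cover counting error only.

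DVE-1 is a homeodomain protein of the SATB family, known in worms as a regulator of the response to unfolded proteins in mitochondria. In that response, stress inside mitochondria leads to the induction of nuclear genes for mitochondrial chaperones and proteases, together with the factors ATFS-1 and UBL-5. A promoter is the stretch of DNA next to a gene's start where transcription factors and RNA polymerase gather. In C. elegans the annotated 5′ end is often a trans-splice site, where a short leader RNA is joined to the transcript, so the true start of transcription can lie further upstream.

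The sequences below show what lay under the summits. Each is centred on the summit, with 50 bases to either side, read in the direction of the gene from the WBcel235 (ce11) genome and chosen among summits where this stretch touched no annotated exon. Capitals mark words of 7 bases that were frequent at these summits, on either strand: the word GAGACGC, the word AGACGCA, the word ACGCAGA and the word CTGCGTC, which reads GACGCAG on the other strand, and the alternating repeat GAGAGAG. The first 4 overlap one another and are called the GACGCAG type. The first set holds the strongest printable peaks without a telomere-like repeat or a nearby tRNA or snoRNA gene. None of the 3 held any of those words, and all are shown in lower case. They lie 269 bp upstream of rpl-3 (chrIII:3867535-3867635, plus strand), 169 bp upstream of cdc-48.1 (chrII:10563526-10563626, minus strand) and 479 bp upstream of K12H4.5 (chrIII:8043958-8044058, plus strand).
rpl-3: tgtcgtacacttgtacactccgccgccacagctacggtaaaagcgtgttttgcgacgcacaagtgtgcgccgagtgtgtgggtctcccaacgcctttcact
cdc-48.1: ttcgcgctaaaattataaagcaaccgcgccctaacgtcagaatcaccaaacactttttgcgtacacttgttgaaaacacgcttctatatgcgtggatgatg
K12H4.5: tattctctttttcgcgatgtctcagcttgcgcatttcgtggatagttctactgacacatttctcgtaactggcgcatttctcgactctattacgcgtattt

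The next set holds the strongest peaks with a word of the GACGCAG type in this stretch. They lie 222 bp upstream of eelo-2 (chrIV:17249859-17249959, plus strand), 145 bp upstream of ntl-11 (chrIV:15471590-15471690, minus strand) and 698 bp upstream of cebp-1 (chrX:1454516-1454616, minus strand). The cebp-1 and eelo-2 sequences hold such words at separate places, in cebp-1 once in each orientation.
eelo-2: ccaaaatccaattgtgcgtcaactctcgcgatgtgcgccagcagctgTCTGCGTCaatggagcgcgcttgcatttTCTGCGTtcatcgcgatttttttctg
ntl-11: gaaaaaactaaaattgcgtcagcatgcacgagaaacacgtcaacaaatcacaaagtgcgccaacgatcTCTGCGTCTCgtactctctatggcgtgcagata
cebp-1: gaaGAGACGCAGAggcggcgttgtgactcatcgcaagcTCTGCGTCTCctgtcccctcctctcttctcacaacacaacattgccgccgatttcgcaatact

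The last set shows the GAGA repeat and, as a contrast, the strongest summit on telomere-like repeat, in which the hexamer of worm telomeres (TTAGGC) is in capitals. The repeat examples lie 762 bp upstream of sms-2 (chrX:949595-949695, minus strand), 392 bp upstream of hsp-1 (chrIV:17278517-17278617, plus strand) and 322 bp upstream of unc-76 (chrV:15071388-15071488, plus strand). The telomere-like summit lies 983 bp upstream of Y41D4B.6 (chrIV:1632712-1632812, plus strand), inside an intron of a neighbouring gene.
sms-2: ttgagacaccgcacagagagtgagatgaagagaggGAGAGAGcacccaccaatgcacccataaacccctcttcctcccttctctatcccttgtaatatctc
hsp-1: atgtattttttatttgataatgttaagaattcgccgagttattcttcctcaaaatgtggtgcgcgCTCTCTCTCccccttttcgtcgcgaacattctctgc
unc-76: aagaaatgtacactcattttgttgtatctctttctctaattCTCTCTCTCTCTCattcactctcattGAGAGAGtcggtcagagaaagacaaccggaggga
Y41D4B.6: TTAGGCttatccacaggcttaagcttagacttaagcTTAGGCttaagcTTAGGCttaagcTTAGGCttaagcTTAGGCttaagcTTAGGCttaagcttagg

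Summits lay ahead of the gene, mostly some distance away and seldom at the annotated start itself. The median summit was 290 bp upstream of the 5′ end, with quartiles at 167.5 and 534 bp and an interval for the median of 264 to 324 bp. Of the 423 summits, 407 (96.2%) were upstream and 16 were downstream. The density was highest between 250 bp and just over 100 bp upstream, with 83.3 peaks per 100 bp of window. It was 40.6 per 100 bp over the last 100 bp before the start and 8.0 per 100 bp downstream of it. Between 1000 and 751 bp upstream it was still 21.2 per 100 bp, so the window's far edge does not mark an end of the peaks.

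**Figure D1:**
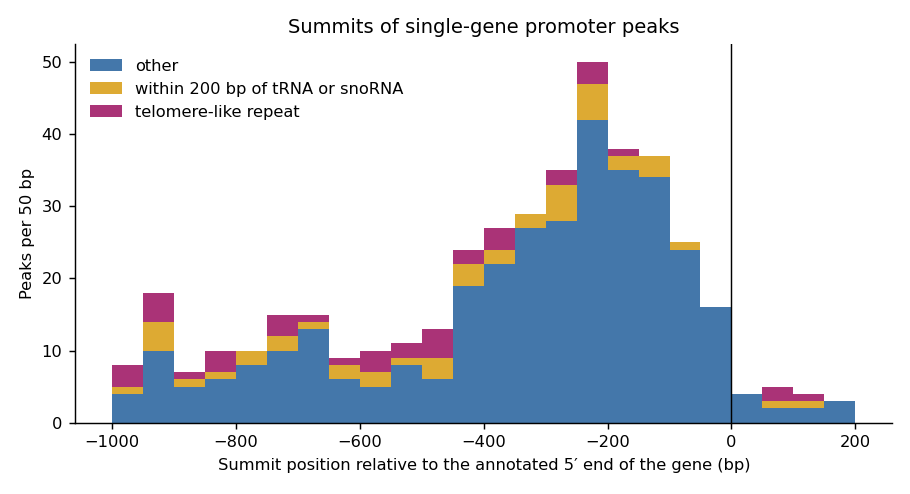
The bars count single-gene promoter peaks in steps of 50 bp by the position of the summit relative to the annotated 5′ end (0, vertical line; negative values are upstream). Summits were densest between 250 and 100 bp upstream, and those on telomere-like repeat or within 200 bp of a tRNA or snoRNA gene were spread further out.

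The edges of the rule cut through this tail. Just inside the far edge were F54F12.1 at 993 bp, Y41D4B.6 at 983 bp and pnk-1, which encodes a pantothenate kinase, at 979 bp. Just outside it were dhs-8 at 1004 bp, C24B9.3 at 1009 bp and fbxb-58 at 1015 bp, with signals of 188, 180 and 201.1. On the downstream side, cnc-10 at 197 bp, tsp-21 at 195 bp and asic-2 at 174 bp were inside, while T28F4.5 at 202 bp, gei-4 at 212 bp and ZK112.4 at 223 bp were outside. The authors' threshold on signal set the other edge. The weakest peaks kept were at K02E2.11 (79.2), F53B3.3 (79.0) and efa-6 (78.9), and the strongest single-gene promoter peaks of the pooled list below it were at lin-59 (78.8), ech-1.2 (78.6) and acy-3 (78.6). The lin-59 peak below the threshold is a weaker peak beside a kept one 442 bp upstream of the same gene.

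Compared with weaker peaks, the strong ones were concentrated. The authors' list from both replicates together, called the pooled list, held 6724 single-gene promoter peaks below the threshold, and their median distance was 309 bp with wider quartiles of 90 and 647 bp. Of these weaker summits 15.7% lay downstream of the start, against 3.78% of the strong ones. Where a strong summit lay in the windows of several genes, the nearest of their starts was at a median of 155.5 bp. This shorter distance is partly built in, because the nearest of several starts was taken. Signal and distance were only weakly related among the 423 peaks (Spearman's rho 0.104 across peaks, which are not replicates). The median distance was 300 bp for peaks above the median signal and 271.5 bp for the others.

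A few kinds of sequence moved with distance. In 39 peaks (9.22%) the sequence within 100 bp of the summit held at least 4 copies of the telomere hexamer, and these telomere-like summits lay at a median of 548 bp. Another 45 (10.6%) had a tRNA gene (31 peaks) or a snoRNA gene (14 peaks) within 200 bp of the summit, and lay at a median of 411 bp. The remaining 339 peaks, called plain below, had a median of 264 bp. Of the 113 summits more than 500 bp upstream, 38 (33.6%) were of those 2 kinds, against 46 of the other 310 (14.8%). Telomere-like repeat was found at 0 of the 216 peaks in the windows of several genes (at most 1.69% by the interval) and at 240 of the 801 peaks outside windows (29.96%). What part these sequences play in the peaks was not tested.

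Most summits lay between genes. The summit was in no protein-coding gene for 364 of the 423 peaks (86.1%), in an intron of another gene for 35, and in an untranslated exon of another gene for 7. For 16 it lay in its own gene, in an intron for 8, in an untranslated exon for 6 and in coding sequence for 2. How much of the window sequence itself lies between genes was not measured, so these shares have no background. The neighbour upstream was read in the same direction for 250 peaks and in the opposite direction for 173. The gap to it had a median of 922.5 bp in the first case and 3449 bp in the second. These counts and gaps follow in part from the rule. With an opposite gene's start close upstream, a summit between both genes falls in both windows and is not a member. A neighbour read in the same direction is not limited in this way by its near end. For 7 peaks another gene's start was nearer than the assigned one, although outside that gene's window. Y41D4B.6 is one of them, with the start of cpg-24 at 811 bp, and H41C03.3 is another, with the start of ZK1248.17 at 700 bp. Of the 420 genes, 167 have more than 1 annotated start.

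The strongest single-gene promoter peaks stood far above the rest. The lowest signal was 78.9 and the highest 444, around a median of 107 (interval 104 to 111) and quartiles of 89.8 and 139. The distribution was close to that of peaks in the windows of several genes (median 109) and of peaks outside windows (112), but the strongest peaks of the whole list, up to 917, were outside windows. The highest signal was at rpl-3, which encodes a protein of the large ribosomal subunit next to its catalytic centre. Its peak (chrIII:3867455-3867684) had a signal of 444 and ranked 9 among all thresholded peaks. It ranked at position 11 of 11568 in replicate 1, with a signal of 196, and at position 9 of 15750 in replicate 2, with a signal of 245.

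Second among the plain peaks was cdc-48.1, which encodes a AAA ATPase that pulls ubiquitin-tagged proteins out of complexes and membranes (VCP or p97 in mammals). Its peak (chrII:10563452-10563657) had a signal of 406, with ranks of 13 and 16 in the replicates and a summit 169 bp upstream. R13A5.11, a serine/threonine phosphatase per RefSeq, followed with 375 and ranks of 18 and 17. The 51 bases at that summit occur 8 times in the nuclear genome and lie in an untranslated exon of another gene, and how the authors treated reads that map to several places is not given in the sources used here. Its signal is therefore uncertain.

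H41C03.3, named an uncharacterized protein in RefSeq, had a signal of 348 (ranks 26 and 19). Its summit lay 24 bp from sls-2.1, whose annotated class is small nuclear RNA. K12H4.5, also without a characterized product, had 313 (ranks 34 and 44). rpl-35, another protein of the large ribosomal subunit, had 301 (ranks 50 and 37) with its summit 449 bp upstream. These 3 peaks were among the 50 strongest of each replicate. Y41D4B.6, second of all members with 427 (ranks 9 and 13), was the strongest telomere-like one, with 13 hexamers within 100 bp of the summit. sre-23, a chemoreceptor gene, had 335 (ranks 24 and 34), and the snoRNA gene ZK265.10 lay 61 bp from its summit. Neither name therefore stands for the only feature next to the summit.

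The next peaks by signal were at puf-9, nspc-17, tos-1, his-37 and egg-5. puf-9, which encodes a Pumilio-type protein that binds messenger RNA, had a signal of 282, and ranked 104 in replicate 1 and 31 in replicate 2. tos-1, a target of regulated splicing, had 264 with its summit 90 bp upstream (ranks 106 and 42). egg-5, which encodes an inactive tyrosine phosphatase needed at the transition from egg to embryo, had 247 (ranks 63 and 81). The gene sls-2.4, whose annotated class is small nuclear RNA, lay 22 bp from its summit. Among these peaks, puf-9 and tos-1 stood higher in replicate 2.

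The peaks at nspc-17 and his-37 were near genes that belong to families of close copies. nspc-17, of a nematode-specific peptide family, had 265 and ranks of 20 and 178. his-37, a histone H4 gene, had 250 and ranks of 35 and 161. Both stood higher in replicate 1. The 51 bases at each of these summits occur once in the nuclear genome. How reads from the rest of the peaks, where copies may be alike, were treated is not known.

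The rest of the 30 strongest peaks covered varied roles. sms-2, for sphingomyelin synthesis, had 239; T02E1.2, whose product carries a fungal-type transcription factor domain per RefSeq, had 237 with the snoRNA gene T02E1.9 57 bp away; and T13C5.6, of the phosphatidic acid phosphatase type, had 229. prhg-1, with a pleckstrin homology domain, had 222 on telomere-like repeat, as did Y74C10AR.2 (213), the chemoreceptor gene srg-34 (211) and Y105E8A.27 (200.1), a homologue of transmembrane protein 47. C47E8.4, the homologue of mammalian FAM50, had 219.9, and hsp-1, for the constitutive cytosolic Hsp70, had 216. unc-76, for axon outgrowth, and zfp-3, a zinc finger gene, had 215 and 214. mrpl-23, for a mitochondrial ribosomal protein, had 205 and bag-1, for a partner of Hsp70, had 203. cbp-1, for the CBP and p300 histone acetyltransferase, had 202 and vig-1, for an RNA-binding protein of the small RNA machinery, had 201.2. F55A11.11, of the phosphoglycerate mutase family, had 198 with a snoRNA gene 59 bp away, and wwp-1, for an E3 ubiquitin ligase, had 197.

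Repeats and non-coding genes lay beside some of the strongest peaks. Of the 50 strongest, 9 were telomere-like, 8 had a tRNA or snoRNA gene within 200 bp, and 20 had a non-coding gene of any annotated class within that distance (40%, interval 26.4% to 54.8%), beside 123 of all 423 (29.1%), which the interval contains. Median signals were 121 for the telomere-like peaks, 127 for those near tRNA or snoRNA genes and 106 for the plain ones. The ranges overlapped almost wholly, and the plain peaks held the highest value.

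Both replicates held nearly all of these peaks. Replicate 1 overlapped 420 by at least 1 bp, replicate 2 overlapped 422, and 419 (99.1%, interval 97.6% to 99.7%) were overlapped in both. This share is nearly fixed in advance, because the thresholded peaks are the strongest of those called on both replicates together. The exceptions were lec-2 (a galectin), chd-7 (a chromatin remodeller) and dpy-22 (Mediator subunit 12), missing in replicate 1, and D2005.4, missing in replicate 2. All 4 had signals of 91.4 or less. Limited to the 1447 strongest peaks of each replicate, 269 members (63.6%) were found in both, 331 in replicate 1 and 356 in replicate 2.

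Summit positions were close between the lists. The replicate's own summit lay a median of 10.5 bp from the thresholded one in replicate 1 and 5.5 bp in replicate 2, and for 396 members (93.6%) both lay within 100 bp. Taken from the replicates' own summits, the median distance to the start was 286.5 and 295.5 bp. The signals of the 2 replicates had a Spearman's rho of 0.408 over 419 members, with points that share libraries and a cut on the pooled signal. Genes with unequal ranks included eat-6, the sodium pump, at 10210 in replicate 1 and 398 in replicate 2, hsp-3, an endoplasmic reticulum Hsp70, at 2812 and 283, and cts-1, citrate synthase, at 360 and 1863.

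**Figure D2:**
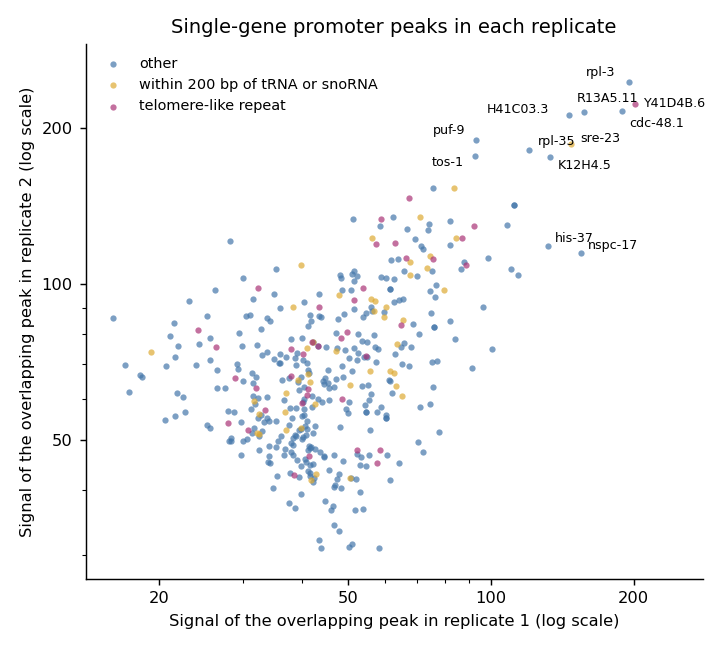
Each point is a single-gene promoter peak found in both replicates, placed by the signal of the overlapping peak in replicate 1 and in replicate 2 (log axes; each list has its own scale), with the 12 strongest named. The strongest peaks, such as rpl-3 and cdc-48.1, were high in both, while the bulk formed a broad cloud with a Spearman's rho of 0.408.

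Genes of the housekeeping families, meant to hold genes that every cell uses, were a minority of the 420. They made up a larger share there than among all genes. A single-gene promoter peak was found for 2.10% of all 19973 protein-coding genes on the nuclear chromosomes, and for 68 of the 1000 genes in 20 housekeeping families (6.80%, interval 5.32% to 8.54%). Put the other way, housekeeping genes were 16.2% of the 420 genes and 5.01% of all genes. A peak only in a window shared with another gene was found for 130 housekeeping genes (13.0%), against a background of 2.23%. So housekeeping genes with a strong promoter peak more often had it in a shared window. Of the other 18973 genes, 352 had a single-gene peak and 315 had a peak only in a shared window. Without telomere-like peaks and peaks near tRNA or snoRNA genes, housekeeping genes were 67 of 336 (19.9%). Just 1 of the 68 housekeeping peaks was of those 2 kinds, at mrpl-23, where the snoRNA gene T08B2.13 lay 24 bp from the summit.

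By number, cytosolic ribosomal proteins had the most members of any housekeeping family. Of 82 cytosolic ribosomal protein genes, 10 had a single-gene peak (12.195%, interval 6.01% to 21.3%) and 34 more had one in a shared window. After rpl-3 and rpl-35 came rpl-11.2 with a signal of 185 and rpl-41.2 with 124. Translation factors had 6 of 48, led by eif-3.B and eif-3.C, subunits of the initiation factor that prepares the small subunit (162 and 141), with eef-1A.2, an elongation factor that delivers aminoacyl-tRNA, at 159 and eif-3.G at 97.1. The mitochondrial ribosome had 4 of 70, mrpl-23, mrpl-15 (138), mrpl-55 (118) and mrpl-28 (117). Of 32 aminoacyl-tRNA synthetase genes 0 had one, and the interval of up to 10.9% contains the background.

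Respiratory chain and ATP synthase genes had 7 of 53 (13.2%, interval 5.48% to 25.3%). cox-5B (185) and cox-5A (149) encode subunits of cytochrome c oxidase, sco-1 (148) a factor for its assembly, and cyc-1 (126) the cytochrome c1 subunit of complex III. The citric acid cycle had the highest share of any list, with 4 of 23 genes (17.4%, interval 4.95% to 38.8%). These were dld-1, the shared dehydrogenase subunit of pyruvate and 2-oxoglutarate oxidation (183), cts-1, citrate synthase (107), idhb-1, a subunit of isocitrate dehydrogenase (100.3), and sucl-1, a subunit of succinyl-CoA ligase (83.5). Glycolysis had 0 of 19 genes (up to 17.6%), in single-gene and in shared windows alike. The vacuolar proton pump, which acidifies lysosomes, had 3 of 21, vha-12 (136), vha-15 (107) and vha-13 (89.5).

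Protein folding genes had 8 of 77 (10.4%, interval 4.59% to 19.4%) for the cytosol and endoplasmic reticulum. After hsp-1 and bag-1 came crt-1, calreticulin (137), and hsp-3 (115). Mitochondrial chaperones, proteases and import had 2 of 29, tomm-20, an import receptor of the outer membrane (134), and phb-2, prohibitin (130). The window of hsp-6, for the mitochondrial Hsp70, held no thresholded summit, and the summit at hsp-60 was shared with another gene. The proteasome had 0 of 33 (up to 10.6%), and ubiquitin with its activating and conjugating enzymes 0 of 29 (up to 11.9%), although cdc-48.1 acts in the same pathway.

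In the remaining housekeeping families, splicing had 5 of 60, led by rsp-6, an SR protein (144), snr-4, a core snRNP protein (129), rsp-8 (94.3) and snrp-3 (87.6). Replication and cell cycle had 5 of 67. Besides cdc-48.1 these included cdk-7, the kinase of TFIIH (129), cdk-5 (118) and pcn-1, the sliding clamp (93.0). cdk-7 is counted as well as the only member among the 77 genes listed by symbol for RNA polymerases, general transcription factors and Mediator. dpy-22, a Mediator gene with a single-gene peak, falls outside that list. Nuclear transport had imb-3 (171), npp-8 (109) and ima-2 (82.1), 3 of 40. Histones had 3 of 81, his-37 and the linker histone genes his-24 (114) and hil-7 (110). Vesicle traffic had 5 of 120, led by vps-60 at 108, then trpp-9 (93.6), sec-3 (93.5) and sec-16A.2 (87.4). tba-2, a tubulin (141), act-5, an intestinal actin (95.9), and pro-1, for ribosome biogenesis (87.8), complete the families. The intervals for RNA polymerases, general transcription factors and Mediator, histones, vesicle traffic, nuclear transport, the mitochondrial ribosome, ribosome biogenesis, mitochondrial chaperones and actins and tubulins contain the 2.10% of all genes.

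**Figure D3:**
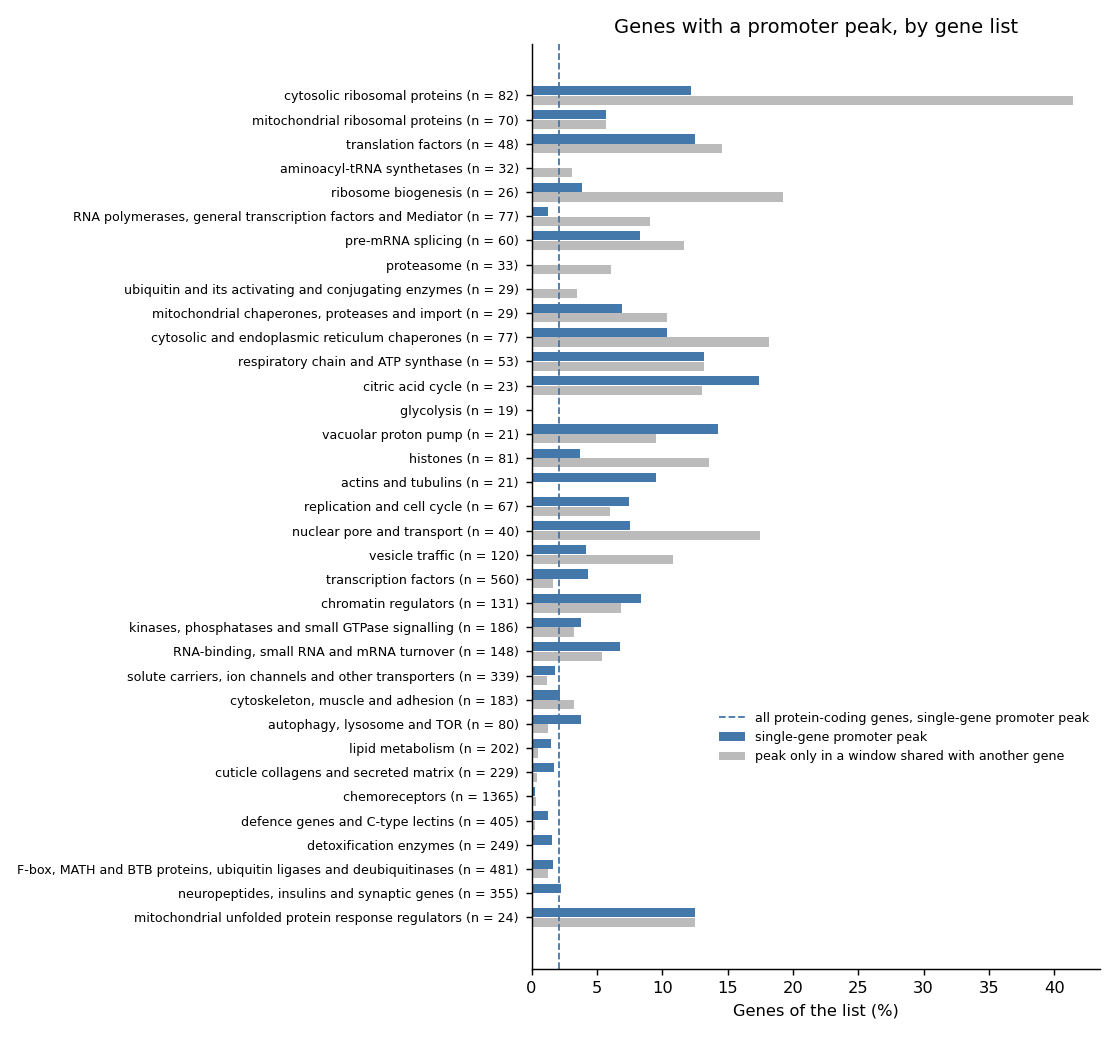
Bars give the percent of each list's genes with a single-gene promoter peak (blue) or with a peak only in a window shared with another gene (grey); the dashed line is the share of all protein-coding genes with a single-gene promoter peak, 2.10%. Citric acid cycle genes had the longest blue bar (17.4%), and cytosolic ribosomal proteins the longest grey one (34 of 82).

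The housekeeping lists go by gene symbol, and some core genes fall outside them because of their names. These were picked out after their values were seen. F36A2.7 is cytochrome c oxidase subunit 4 per RefSeq and had a signal of 175. Y82E9BR.3, the c subunit of ATP synthase, had 103. C34C12.8, the mitochondrial GrpE that recharges mitochondrial Hsp70, had 117, and immt-1, for the MICOS complex that shapes the inner membrane, had 121. Others were icd-2, of the complex that meets nascent peptides at the ribosome (147), dpy-23, the mu subunit of the AP-2 clathrin adaptor (164), chc-1, the clathrin heavy chain (98.8), and cpsf-1, for 3′ end cleavage (114). The Mediator gene dpy-22 had 81.9. The count of 68 thus leaves out some genes with such functions, while it takes in act-5, an intestinal actin. The genes named here are all members, so they do not show that the housekeeping share is too low.

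The 352 genes outside the housekeeping families were the larger group. Of these, 235 have a given symbol and the rest only a sequence name. For 253 of the 352 a role could be assigned by hand, in 12 classes made after the genes were known, so the classes carry counts and no shares of a genome-wide total. The largest were mitochondria and metabolism with 37 genes, transcription factors and cofactors with 37, and kinases, phosphatases, G proteins and other signalling with 35. The ubiquitin system, proteases and protein folding together had 34, and RNA processing, turnover and small RNA pathways had 27. Chromatin had 21. Of the 99 genes without a class, 24 have a given symbol. Telomere-like or tRNA and snoRNA peaks accounted for 83 of the 352 genes (23.6%).

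The 27 genes of RNA processing and turnover had a median signal of 128, with a median distance of 145 bp and 1 peak near tRNA or snoRNA genes or telomere-like repeat. The class of 9 chemoreceptor and defence genes, 6 of them with such sequence, had a median of 127. In the list of RNA-binding and mRNA turnover genes by symbol, 10 of 148 were members (6.76%, interval 3.29% to 12.1%). After puf-9 came ntl-2 (178) and ntl-11 (174), both for the CCR4-NOT complex that removes poly(A) tails, and cgh-1 (163), for a DEAD-box helicase of germ granules and P bodies. ain-1, the GW182-type partner of Argonaute in microRNA silencing, had 182. vig-1 acts in the same machinery.

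Transcription factors were members in 24 of 560 cases (4.29%, interval 2.76% to 6.31%), of which 12 were nuclear hormone receptors (of 269 nhr genes) and 12 came from the other 291. No gene of the ceh homeobox group was among them, 0 of 63, which allows a share of up to 5.69%. The strongest were xbp-1, the bZIP factor made by unconventional splicing when proteins misfold in the endoplasmic reticulum, with a signal of 185 and a summit 13 bp upstream, and mdl-1, a Mad-type partner in the Myc network, with 181 at 93 bp. Then came cebp-1, a C/EBP factor of axon regeneration and stress (168), and jun-1, an AP-1 factor (140). In replicate 1 xbp-1 ranked 230 and in replicate 2 162, whereas mdl-1 ranked 589 and 107. Among the receptors, nhr-49, which governs fat metabolism, had 108 (named after its value was seen).

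Regulators of the mitochondrial response itself had 3 single-gene members of 24, and 3 more in shared windows. cbp-1 had a signal of 202 with its summit 920 bp upstream and ranks of 200 and 120. cebp-1 had 168 at 698 bp with ranks of 297 and 224. atfs-1, for the bZIP factor that moves from mitochondria to the nucleus under stress, had 82.3, close to the threshold, at 59 bp, with ranks of 736 and 2737. atf-4 is among those in shared windows, and neither dve-1 nor ubl-5 had a thresholded summit of its own there. With 24 genes, the interval for 3 members runs from 2.66% to 32.4%.

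Sensors of the endoplasmic reticulum stress response were also present, named here after their values were seen. ire-1, the kinase and endonuclease that splices xbp-1 RNA, had a signal of 113 at 181 bp, and atf-6, the sensor cleaved in the Golgi, had 85.1 at 233 bp. pek-1, the remaining sensor, and hsp-4, a target of the pathway, had none. uggt-1, which checks the folding of glycoproteins, had 120, and crt-1 and hsp-3 are given above.

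Chromatin regulators had 11 members of 131 (8.40%, interval 4.27% to 14.5%). This list goes by symbol, and zfp-3, its strongest member, was left without a class when roles were assigned by hand. Besides zfp-3 and cbp-1 the strongest were swsn-7 (162) and swsn-3 (133), both for the SWI/SNF remodelling complex. Signalling genes by symbol had 7 of 186 (3.76%, interval 1.53% to 7.60%, which contains the 2.10% of all genes), kin-29, a salt-inducible type kinase (130), gsa-1, the stimulatory G alpha subunit (106), gpb-2, a G beta subunit (93.1), and gsp-2, a protein phosphatase 1 catalytic subunit (86.5), being the strongest. nipi-3, a Tribbles-type kinase homologue that acts upstream of cebp-1, had 168 at 288 bp. The list of F-box, MATH and BTB proteins, ubiquitin ligases and deubiquitinases had 8 of 481. wwp-1 was followed by otub-2 (143) and usp-4 (142), for deubiquitinases, and lin-23, an F-box protein (124). fbxl-2, a further F-box gene outside that list's pattern, had 195, and eelo-2, a peptidase of the M3 type, had 191.

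Metabolic and trafficking genes with given symbols included pdhk-2, the kinase that switches off pyruvate dehydrogenase, with 162. epn-1, for epsin in endocytosis, had 2 peaks of 160 and 99.8. Autophagy and lysosome genes had 3 of 80 (3.75%, interval 0.780% to 10.6%, which contains the 2.10% of all genes), epg-7 (158), lgg-1, the Atg8 protein of autophagosomes (103), and epg-8 (83.2). Lipid genes had 3 of 202, ech-2 (121), cept-2 (115) and acaa-2 (84.0). Cytoskeleton and adhesion genes had 4 of 183, unc-76, spc-1, alpha spectrin (94.7), hmp-1, alpha catenin (94.1), and klp-13 (85.0). Synaptic, neuropeptide and insulin-like genes had 8 of 355, led by ins-39 (190), snt-4, a synaptotagmin (129), flp-23, a neuropeptide gene (122), and snb-1, synaptobrevin (106). The shares of these last 2 lists were near the 2.10% of all genes.

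Chemoreceptor, cuticle and defence families had few members, and some of these sat beside other features. Of 1365 chemoreceptor genes, 4 (0.293%) had a single-gene peak: sre-23 beside a snoRNA gene, srh-269 (123.2) on a tRNA gene, and srg-34 and srg-16 (115) on telomere-like repeat. Collagen and secreted matrix genes had 4 of 229. col-42 (184) and cutl-22 (147) were on telomere-like repeat, col-185 (91.0) was on a tRNA gene, and col-107 (80.9) was on neither. Defence genes and lectins had 5 of 405. clec-126 (187) was near tRNA genes and was the only such member of the list, and cnc-10, a caenacin gene (156), and nlp-29, an antimicrobial peptide gene (84.3), had summits 197 and 131 bp inside the gene, while clec-178 had 81.8.

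Transporter and detoxification genes included 10 members. Of 339 transporter and channel genes 6 were members: snf-7, of the neurotransmitter transporter family, on telomere-like repeat (190), aqp-9, an aquaporin, on a tRNA gene (181), asic-2 (100.5) and eat-6 (91.0) the strongest, of which the last 2 were beside neither kind of sequence. Detoxification enzymes had 4 of 249, gst-27 (182) with a snoRNA gene 55 bp away, and msra-1 (97.0), gst-5 (93.2) and gst-13 (79.3) beside neither. egas-1, outside the lists, had 177 on telomere-like repeat. The part of the repeats and small RNA genes in these peaks was not tested. The shares were 1.77% for transporters, 1.75% for collagens and matrix, 1.61% for detoxification, 1.49% for lipids and 1.23% for defence. The list of F-box, MATH and BTB proteins, ubiquitin ligases and deubiquitinases had 1.66%. The intervals of all these lists contain the 2.10% of all genes, and that for chemoreceptors (at most 0.749%) did not.

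For egg-5, epn-1 and W01D2.3 the thresholded list gave 2 peaks each. Their summits were 199, 207 and 216 bp apart. In every case the paired peaks overlapped and were covered by the same single peak in each replicate's own list. The signals were 247 and 145 at egg-5, 160 and 99.8 at epn-1, and 156 and 83.6 at W01D2.3, whose product is a receptor expression-enhancing protein per RefSeq. They do not count as separate sites in the replicates.

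The X chromosome carried more of these peaks than its window length would give. It held 92 of the 423 (21.7%, interval 17.9% to 25.99%), in 15.5% of all sequence that lies in exactly 1 promoter window. That is 31.1 peaks per Mb of such window, against 25.3 to 26.0 on chromosomes I, II and III, 16.5 on IV and 14.05 on V. None of the 92 was telomere-like, and without telomere-like peaks and those near tRNA or snoRNA genes the X share was 23.9%. Single-gene peaks were 40.2% of all nuclear peaks on X and 24.0% to 31.2% on the autosomes. In the windows of several genes there were 8 peaks on X and 34 to 51 on each autosome. The length of sequence in such shared windows was not counted by chromosome. These shares and counts therefore have no background and are not read as a trait of the X peaks. Median signals were alike, 107 on X and 103 to 122 elsewhere. Among the X members are puf-9, nspc-17, sms-2, T13C5.6, zfp-3, ins-39, mdl-1 and cebp-1. sdc-2, which starts dosage compensation on X in hermaphrodites, had a signal of 114 at 371 bp (named after its value was seen).

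**Figure D4:**
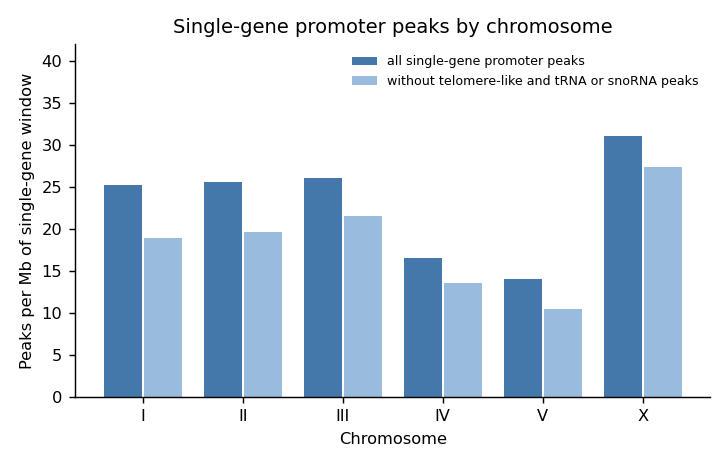
Bars give single-gene promoter peaks per Mb of sequence that lies in exactly 1 promoter window, for each chromosome, with all 423 peaks (dark) and with the 339 plain peaks (light). X was highest with 31.1 per Mb and V lowest with 14.05 per Mb, and the order of these 2 was the same for the plain peaks.

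Bases at the summits differed from those around them. The sequence within 100 bp of the 423 summits had a mean GC content of 45.3%, against 37.0% for windows 600 bp to either side and 34.4% for windows of the same length centred 290 bp upstream of all 19973 genes. Weaker single-gene peaks had 37.1%. Signal and GC content had a Spearman's rho of 0.129 over the members. The motif shares that follow were read from windows that differ in GC content in this way, and its part in them was not tested.

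The words printed in capitals above were found by ranking all 7-base words on the plain peaks of chromosomes I, III and V against their flanks, and the 8 kept were then read on II, IV and X. On those chromosomes GACGCAG was in 36 of 187 summit windows (19.3%, interval 13.8% to 25.6%) and in 2.41% of flanks. GAGACGC was in 18.7% against 2.41%, and GAGAGAG in 21.4% against 1.604%. At least 1 of the 4 GACGCAG-type words was in 54 of the 187 (28.9%) and 5.08% of flanks. At least 1 of the 4 GAGA-type words (the repeat GAGAGAG, the word AGAGAAA, the word GGAGAGA and the word TGAGAGA) was in 85 (45.5%) and 12.6% of flanks. Over all 339 plain peaks, 216 (63.7%) had 1 or more of the 8 words, 60 had words of both types, and the words overlap one another. The 339 include the peaks of I, III and V on which the words were chosen, which can raise these 2 counts. GAGACGC, for example, was in 25.7% of the plain peaks on I, III and V. No share of flanks was counted for the 8 words together.

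Neither type was particular to single-gene peaks. The GACGCAG type was in 24.1% of the peaks in the windows of several genes, 8.95% of the weaker single-gene peaks and 4.83% of all promoter windows. The GAGA type was in 32.9%, 23.9% and 16.7%. Over all 423 members, the GACGCAG type was in 17 of 68 housekeeping members (25%) and 88 of 355 others (24.8%). It was in 26.1% of members on X and 24.5% on the autosomes. It was in 0 of 39 telomere-like peaks and 5 of 45 near tRNA or snoRNA genes. Such peaks were unevenly spread. Just 1 of the 68 housekeeping members was of those kinds, and 0 of the 92 members on X were telomere-like. Whether housekeeping members differ from the others, or X from the autosomes, among plain peaks alone was not tested. Among the 339 plain peaks, median signals with and without any of the 8 words were 105 and 107.

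Words chosen for their known meaning gave mixed shares. The homeodomain core TAATTA, of interest because DVE-1 is a homeodomain protein, was in 11 of 423 summit windows (2.6%), in 7.57% of flanks and in 11.5% of all promoter windows. TTTCAG, the type of sequence at trans-splice acceptors, was in 11.8%, 38.3% and 33.1%, and TATAAA, the TATA type, in 8.51%, 21.2% and 24.2%. These words are rich in A and T, as the flanks are. The GATA-type TGATAA was in 9.46% of summits and 17.6% of flanks. The E2F-type TTTCGCGC was in 3.07%, 0.473% and 0.811%, the palindromic E-box CACGTG in 4.96%, 4.02% and 3.16%, and CAGCTG in 7.09%, 3.55% and 3.43%. All were counted on both strands.

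**Figure D5:**
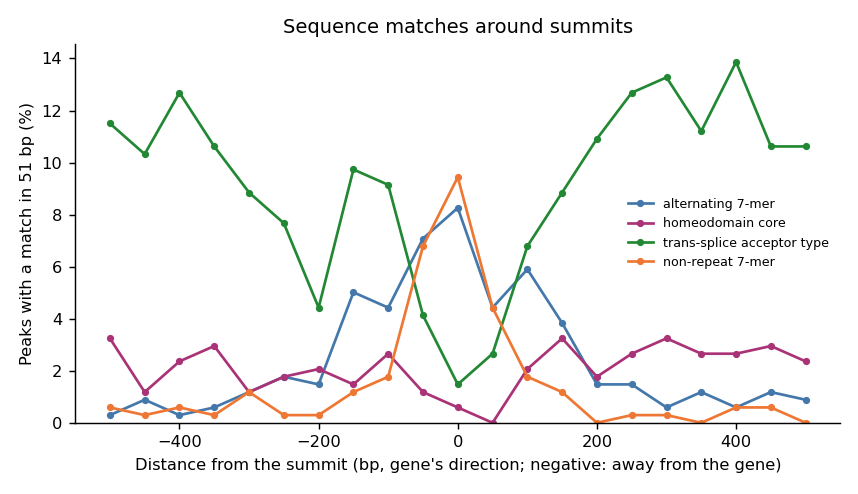
Lines give the percent of the 339 plain peaks with a match in 51 bp at each distance from the summit, in the direction of the gene, for the alternating 7-mer (GAGAGAG), the non-repeat 7-mer (GACGCAG), the homeodomain core (TAATTA) and the trans-splice acceptor type (TTTCAG). The non-repeat 7-mer reached 9.44% at the summit and 1.77% at 100 bp to either side, and the trans-splice acceptor type had its lowest value, 1.47%, at the summit. The 339 include the peaks of I, III and V on which both 7-mers were chosen.

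The 2 frequent words differed in how closely they kept to the summit. The 339 plain peaks used here include those of I, III and V on which both words were chosen against flanks. A higher share of these words at the summit than far from it is therefore partly built in. In windows of 51 bp, GACGCAG was in 32 of 339 plain peaks (9.44%) at the summit itself, in 6.78% at 50 bp towards the upstream side and in 4.42% at 50 bp towards the gene, and in 1.77% at 100 bp on either side. GAGAGAG was spread more widely, with 8.26% at the summit and still 5.01% at 150 bp upstream of it and 3.83% at 150 bp downstream. TAATTA was in 2 peaks at the summit and in 0 at 50 bp towards the gene.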

How the data were processed

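DVE-1-GFP ChIP-seq peaks of 2 biological replicates of late embryos (1 group) were analysed. Each deposited peak carries a signal, the enrichment value of the authors, and a summit as an offset from its start. Which aligner, peak caller and IDR settings were used, and how multiply mapped reads were treated, is not given in the sources used here. Lists in ce11 were read with Ensembl 115 WBcel235 genes and the matching genome; ce10 lists were not used. A gene's 5′ end is the outermost end of its annotation. Replicate peaks counted when sharing at least 1 bp. Intervals are exact Clopper-Pearson 95% intervals. The members and gene lists were chosen with earlier results of these data known, as were roles and motifs, and list patterns were corrected after seeing the data. Named genes are those of the 30 strongest peaks, up to 4 per list, the 30 strongest given symbols outside housekeeping families, the 10 strongest sequence names, genes with 2 peaks and those at the rule's edges; a result for 1 other gene is not reported here. Other genes, such as core genes missed by the symbol lists, stress sensors and peaks missing in a replicate, were named after their values were seen. RefSeq products were matched for 410 of 420 genes. Alternatives varied the window, starts, small RNA genes, signal, replicates, summit agreement, telomere-like peaks and motif windows; leaving out summits whose 51 bases recur was chosen after seeing the data. Assignment and overlap were tested on simulated data. Software was pandas 2.3.3, numpy 2.4.6, matplotlib 3.10.9 and scipy 1.17.1 under Python 3.11.15.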

Additional observations from a re-analysis of the deposited data

How the results depend on the processing

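The 423 peaks, their distance, signal, replicate share and housekeeping share were recomputed under up to 12 alternatives each. The window moved the distance and the housekeeping share. From 500 bp upstream to 100 bp downstream the median distance was 219 bp and the housekeeping share 21.7%. From 2000 bp upstream to 500 bp downstream they were 443 bp and 10.8%. Peaks above the median signal numbered 198, with a median signal of 142 and 100% found in both replicates. Leaving out each replicate in turn, the other list gave median signals of 44.6 to 67.1 on its own scale and replicate shares of 97.3% to 98.6%. Over all alternatives the number of peaks ran from 198 to 505. In windows of narrower and wider reach (50 and 200 bp to either side), GAGAGAG was in 13.0% and 27.7% of summits, against 1.54% and 5.67% of flanks, and TAATTA in 0.709% and 11.58%, against 4.14% and 16.4%. No paired analysis was possible because there was 1 group of 2 replicates and no comparison between groups.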
